A study of Drosophila melanogaster with 2 samples.

Results

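The genes described here were the translation initiation and elongation factor genes of Drosophila melanogaster, taken as every protein-coding gene whose symbol begins with eIF or eEF. There were 52 of them among 13986 protein-coding genes. Binding was measured by chromatin immunoprecipitation and sequencing (ChIP-seq) of Bowl, an odd-skipped family protein with zinc fingers that bind DNA, in transgenic embryos that expressed a bowl-eGFP fusion and were precipitated with an antibody against GFP. The embryos were whole animals collected over 0 to 24 h of development, with 2 biological replicates in 1 group, and no second genotype, treatment or stage was compared. Whole embryos mix many cell types and stages, so no binding event below can be placed in a cell type. The labels describe an insertion targeting bowl, and the promoter that drives the fusion is not given in the sources used here.

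Translation begins when initiation factors load the initiator tRNA and the small ribosomal subunit onto a capped mRNA, scan to the start codon and release the subunit for joining with the large one. The eIF2 complex carries the initiator tRNA and eIF2B recharges it, eIF3 is a scaffold on the small subunit, the eIF4 proteins bind the cap and unwind the leader, and eIF5, eIF5B and eIF6 act around subunit joining. Elongation factors then deliver aminoacyl-tRNA and move the ribosome along the mRNA. Ribosomal protein genes form a separate class, with a pyrimidine-rich initiator (TCT) at their transcription start sites (TSSs) in flies. The question addressed was whether binding at promoters extended to the factor genes as well as the ribosomal protein genes.

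The sequences at the summits of 6 peaks are given first. The words discussed below were searched within 100 bp of the summit of every factor peak, so some copies lie outside the stretches shown. A summit is the position of highest enrichment in a peak, and each sequence covers up to 70 bp on either side of it, cut where the gene's transcribed exons begin or end. All are from the RefSeq Release 6 assembly (dm6) and are written 5′ to 3′ on the strand of the factor gene. Capitals mark copies of the words searched, which are TATCGATA or TATCGAT (holding the DNA replication-related element, DRE), TATAAA (the letters of the TATA box) and CAGTAGC (the core recognised by odd-skipped proteins). A sequence with no capitals held none of the words searched within the stretch shown.
eEF1gamma distal, chr3R:29214375-29214515, plus strand: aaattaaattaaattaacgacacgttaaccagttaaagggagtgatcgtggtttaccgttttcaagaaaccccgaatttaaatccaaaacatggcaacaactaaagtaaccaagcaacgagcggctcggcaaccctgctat
eEF1gamma promoter, chr3R:29220060-29220171, plus strand: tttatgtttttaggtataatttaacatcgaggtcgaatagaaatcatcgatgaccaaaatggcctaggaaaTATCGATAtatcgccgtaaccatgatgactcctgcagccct
eIF5B promoter, chr3L:3460629-3460706, minus strand: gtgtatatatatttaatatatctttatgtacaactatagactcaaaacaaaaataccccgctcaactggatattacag
eIF3h intron, chr2L:5052357-5052497, minus strand: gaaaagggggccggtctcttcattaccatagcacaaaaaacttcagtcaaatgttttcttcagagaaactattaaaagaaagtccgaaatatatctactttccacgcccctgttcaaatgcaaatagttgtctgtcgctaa
eEF2 promoter, chr2L:21682165-21682244, minus strand: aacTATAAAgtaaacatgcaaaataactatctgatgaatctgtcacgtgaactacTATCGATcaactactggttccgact
eIF2beta promoter, chr3L:12526995-12527135, minus strand: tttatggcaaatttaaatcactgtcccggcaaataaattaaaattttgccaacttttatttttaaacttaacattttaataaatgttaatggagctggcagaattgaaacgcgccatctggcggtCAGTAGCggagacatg

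Of the 52 factor genes, 7 had Bowl-eGFP peaks: the elongation factors eEF1gamma, eEF2 and eEF5 and the initiation factors eIF2beta, eIF3h, eIF5B and eIF6. Each of the 7 had at least 1 peak in its promoter, defined as a summit within 500 bp of a protein-coding TSS. Together they held 9 peaks of the 2198 in the list called on both replicates pooled by the authors, where a peak was given to the gene of the nearest protein-coding TSS. The pooled list was cut by the authors from 132019 ranked candidate regions, of which 387 lay nearest to a factor gene. Among the factor genes only eIF4G1 on chromosome 4, a scaffold of the cap complex, was nearest to no candidate.

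Counted over genes that were nearest to at least 1 candidate, 7 of 51 factor genes had a peak (13.7%, 95% Wilson interval 6.81 to 25.7%), against 12.9% of all protein-coding genes. Counted in promoters alone, 7 of the 42 factor genes with a promoter candidate had a promoter peak (16.7%, interval 8.32 to 30.6%), against 9.27% of all genes with such a candidate. Over all genes with no condition on candidates, the shares were 13.5% of the factor genes (interval 6.68 to 25.3%) and 7.24% of protein-coding genes. The share among factor genes at any distance was therefore near the background, and the promoter share was above it in value with an interval that held the background. The intervals cover counting error over genes only, and no test of the list was made.

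Regions were counted in place of genes as a second measure. At factor genes 9 of 387 candidates were peaks (2.33%, interval 1.23 to 4.36%), against 1.66% of all candidates. Among promoter candidates it was 8 of 71 (11.3%, interval 5.82 to 20.7%) at factor genes, against 5.48% of all promoter candidates. For promoter candidates the interval lay just above the background share, unlike the interval over genes, but candidates of 1 gene are not independent, and the 2 eIF3h peaks overlap by 103 bp, which leaves 8 regions that do not overlap.

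The cytoplasmic ribosomal protein genes had a higher share. Of the factor genes with a promoter candidate 16.7% had a promoter peak, while of the ribosomal protein genes 41 of 79 did (51.9%, interval 41.1 to 62.6%), so the 2 intervals did not overlap. The median signal of the strongest promoter candidate per gene was 32.4 in 42 factor genes, 67.5 in 79 ribosomal protein genes and 29.1 in 10928 protein-coding genes. The order of factor genes and all genes differed between single replicates. In replicate 1 the median was 21.7 in 41 factor genes, against 19.4 in 10096 protein-coding genes. In replicate 2 it was 14.3 in 33 factor genes, against 15.0 in 9547 protein-coding genes. Genes with no promoter candidate in a replicate were left out, so the gene sets differ, and these small differences were not tested. Signal here is the score of the authors' peak caller, which has no stated scale and serves to rank regions within a list. Set beside these, the 35 factor genes with a promoter candidate and no peak had a median of 28.0 and a highest value of 57.4. The difference between factor genes and ribosomal protein genes was not tested, as the lists were chosen with results of these data known.

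**Figure D1:**
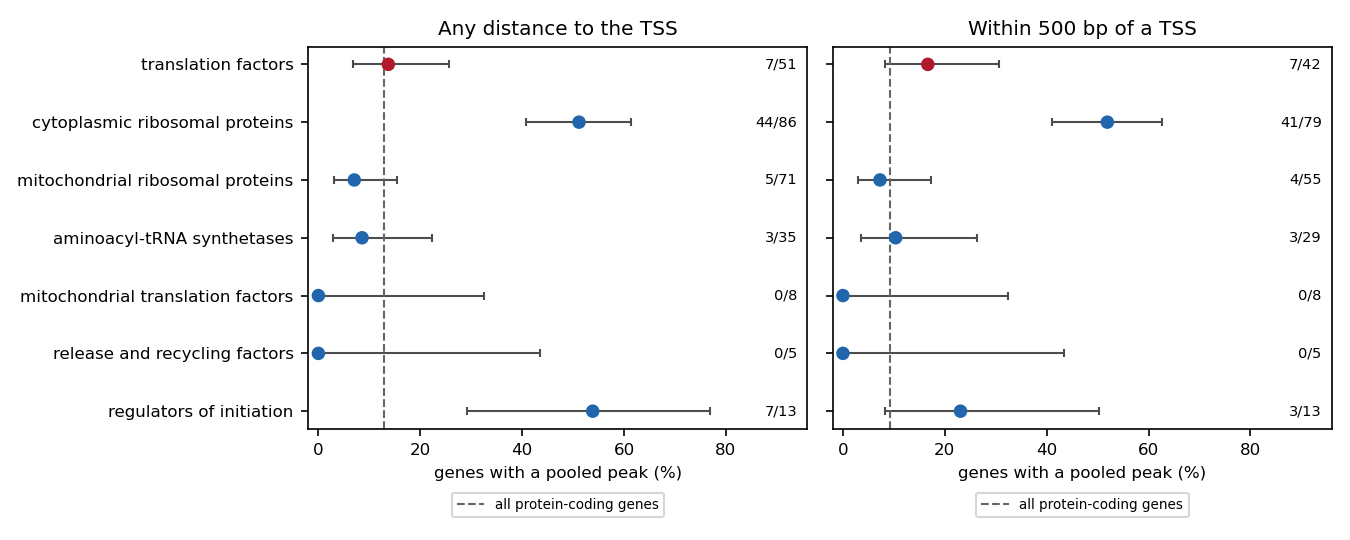
Percentage of genes in 7 lists of the translation machinery that had a pooled peak, at any distance (left) and within 500 bp of a TSS (right), with 95% Wilson intervals and the counts at the right edge of each panel. The dashed line marks all protein-coding genes (12.9% and 9.27%). The factor genes (red) lie near that line on the left (13.7%) and to its right on the right (16.7%), with intervals that cross it in both panels, and the cytoplasmic ribosomal protein genes (51.2% and 51.9%) lie to its right. The regulators of initiation (53.8% and 23.1%) also lie to its right, with an interval that crosses it in the right panel.

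Other parts of the machinery were counted in the same way. The factor genes' 7 of 51 compares with 5 of 71 mitochondrial ribosomal protein genes (7.04%), 3 of 35 aminoacyl-tRNA synthetase genes (8.57%), 0 of 8 mitochondrial translation factor genes and 0 of 5 release and recycling factor genes. Over all protein-coding genes nearest to a candidate it was 12.9%. Lists this small set wide limits: a count of 0 of 8 has an interval up to 32.4%, and a count of 0 of 5 up to 43.4%. Of the 16 matched regulators of initiation, 13 were nearest to a candidate, and 7 of these 13 had a peak (53.8%, interval 29.1 to 76.8%). In promoters it was 3 of the 13 with a promoter candidate (23.1%, interval 8.18 to 50.3%), against 9.27% of all genes with such a candidate. The 3 were Thor, the eIF4E-binding protein (signal 118.8, summit 6 bp from the TSS), PEK, an eIF2alpha kinase (64.4, 302 bp), and larp, an RNA-binding protein of the La-related family (74.9, 140 bp). The others were pAbp, which binds poly(A) tails (94.2, at 504 bp just outside the promoter window), Lk6, a kinase of eIF4E (67.7, 1426 bp), bel, a DEAD-box helicase (62.3, 1482 bp), and Tctp (100.5, 1592 bp).

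Among the 8 elongation factor genes, 3 had promoter peaks, against 7.24% of all protein-coding genes, and this small group was not tested. After eIF6, eEF1gamma had the peak of highest signal among the factor genes. It encodes the gamma subunit of the complex that recharges eEF1alpha with GTP. Its stronger peak, chr3R:29214319-29214541, had a signal of 466 pooled, 315 in replicate 1 and 147 in replicate 2, and ranked 31 of 2198. This summit was in intergenic sequence 5727 bp upstream of the eEF1gamma TSS, with the next gene, Cisd2, 8983 bp away, so its link to eEF1gamma rests on distance alone. The second peak, chr3R:29219975-29220284, was at the promoter, 42 bp upstream of the TSS, with signals of 177 pooled, 89.0 in replicate 1 and 91.2 in replicate 2 (rank 264). Both were also in the list the authors marked as conservative and in each replicate's own list.

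The remaining elongation factor peaks were weaker. At eEF2, which encodes the translocase, the peak chr2L:21682019-21682328 had its summit 10 bp upstream of the TSS, and the signals were 75.7 pooled, 50.6 in replicate 1 and 25.7 in replicate 2. Replicate 2 ranked the region 3680 among 106305 candidates, well outside its own list, whereas replicate 1 and the conservative list held it. At eEF5, the fly homologue of eIF5A that aids peptide bond formation at difficult residues, the peak was at chr2R:24057785-24058094, in an intron 87 bp downstream of the TSS. Its signals were 70.1 pooled, 47.0 in replicate 1 and 23.0 in replicate 2, and neither replicate list nor the conservative list held it.

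Of the 5 other elongation factor genes, eEF1alpha1 came closest to a pooled peak. It encodes the factor that brings aminoacyl-tRNA to the ribosome, and its region chr2R:11891944-11892247 was a peak in replicate 1's own list (signal 42.9, rank 1495 of 1662). The best pooled promoter candidate of eEF1alpha1 had a signal of 52.2 and a −log10 global irreproducible discovery rate (IDR) of 1.53. The IDR measures how poorly ranks repeat between 2 sets of peaks, and the threshold was a −log10 IDR of 2, or an IDR of 0.01. All pooled peaks passed this threshold. A further 87 candidates also passed it and were not in the pooled list, so that list was not cut on the IDR alone. eEF1alpha2, eEF1delta and eEFSec, the selenocysteine tRNA carrier, reached 8.75 to 15.6 among pooled candidates. eEF1beta had no pooled promoter candidate, but replicate 1 had one there with a signal of 35.3 and rank 3287.

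**Figure D2:**
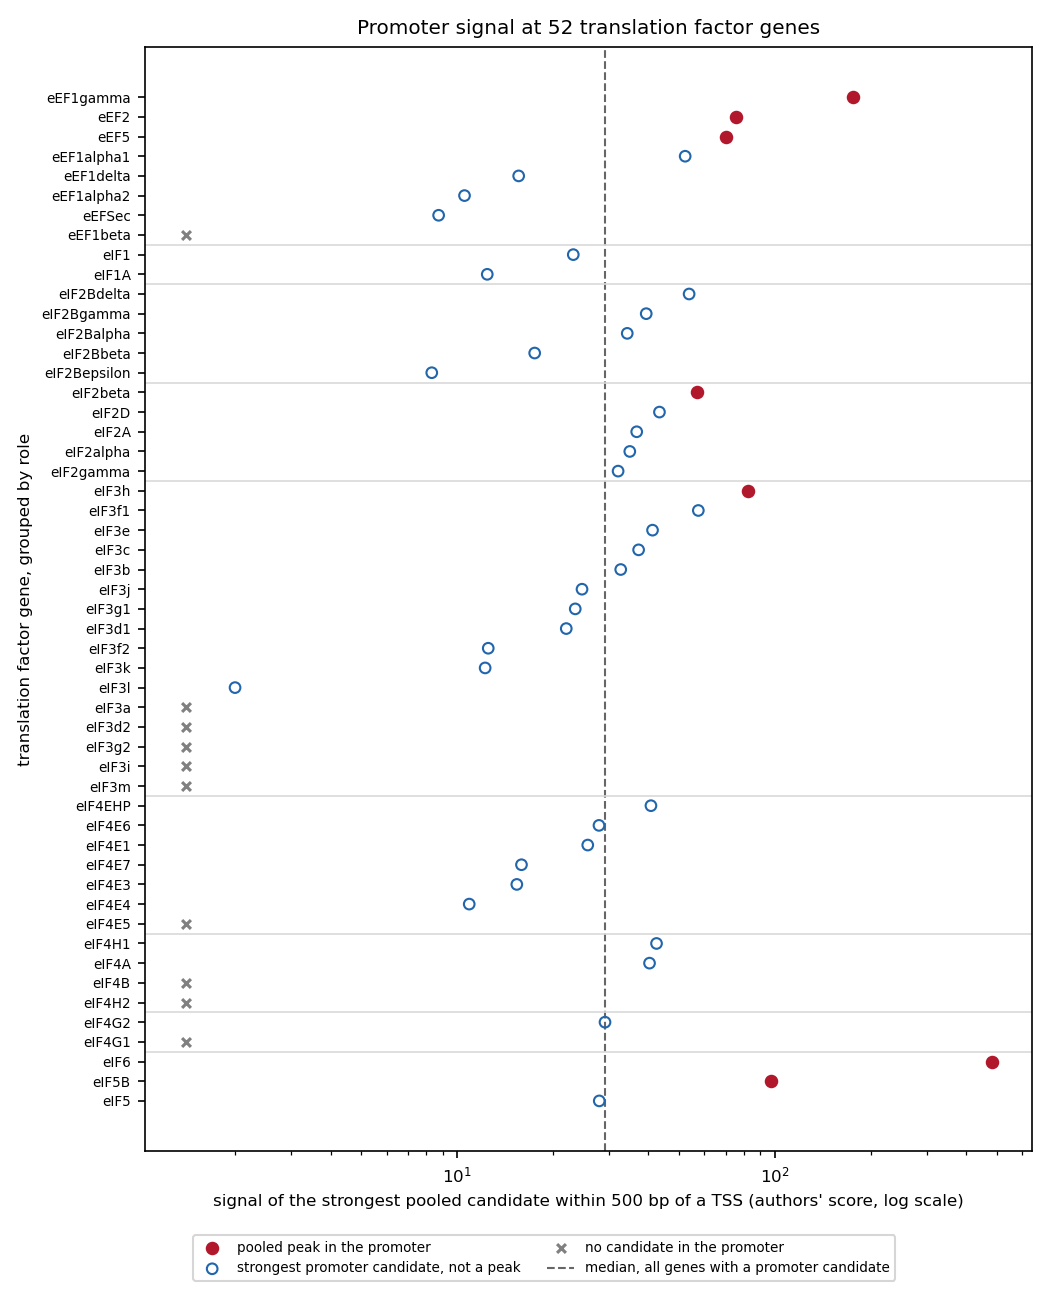
Signal of the strongest pooled candidate within 500 bp of a TSS for each of the 52 factor genes, on a log scale, grouped by role with the strongest gene at the top of each group. Filled points are peaks (7 genes), open points are candidates that were not peaks (35 genes), crosses are genes with no promoter candidate (10 genes), and the dashed line is the median of all genes with a promoter candidate (29.1).

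Among initiation factors, the strongest promoter peak was at eIF6, whose protein binds the large ribosomal subunit and keeps it from joining early. The peak, chr2R:23850312-23850518, had signals of 481 pooled, 292 in replicate 1 and 187 in replicate 2. It ranked 29 of 2198 in the pooled list and had a −log10 IDR of 5, the largest value in the files. The summit was 108 bp upstream of the eIF6 TSS, inside an intron of ytr and an exon of an antisense RNA, CR45928. All the other lists held it, and each replicate ranked it among its first 32 candidates.

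eIF5B, the GTPase that joins the subunits, had a peak at chr3L:3460510-3460819 with signals of 96.9 pooled, 59.8 in replicate 1 and 40.7 in replicate 2. Its summit was 62 bp upstream of the nearest eIF5B TSS and inside an intron of the longer eIF5B transcript. In replicate 2 the region had a −log10 IDR of 1.75 and so missed that replicate's list, while the conservative list and replicate 1's list held it. The third gene of this group, eIF5, which stimulates GTP hydrolysis by eIF2, had a best promoter candidate of 28.0.

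eIF3h was the 1 subunit gene of 16 in the eIF3 group with a pooled peak, against 12.9% of all protein-coding genes nearest to a candidate. The stronger of its 2 overlapping peaks, chr2L:5052272-5052581, had a summit 353 bp downstream of the TSS in an intron, with signals of 82.4 pooled, 42.6 in replicate 1 and 45.3 in replicate 2. The weaker, chr2L:5052479-5052788, lay 146 bp downstream and had a pooled signal of 7.15, at 15.6 in replicate 1 and with no candidate in replicate 2. The eIF3h TSS nearest to the summits, 1 of 2 annotated, and the senju TSS are 63 bp apart and point away from each other. The 2 summits were 416 and 209 bp from the senju TSS, so the peaks cannot be assigned to 1 of these 2 genes by position.

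A second eIF3 subunit gene, eIF3f1, had peaks in the conservative list and not in the pooled list. The stronger, chr3R:4713942-4714251, was 85 bp downstream of the TSS, with a signal of 57.4 and rank 1484 of 1557 in the conservative list. It had a −log10 IDR of 1.92 in the ranked list behind the pooled one, just under the threshold of 2. An overlapping conservative peak, chr3R:4714143-4714452, had a signal of 8.24. Replicate 1 gave 39.4 and replicate 2 gave 30.3 at the eIF3f1 promoter. The best pooled promoter candidates of eIF3e (41.2) and eIF3c (37.3) were lower than that of eIF3f1 (57.4). No pooled promoter candidate was found at eIF3a, eIF3d2, eIF3g2, eIF3i or eIF3m.

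At eIF2beta, a subunit of the complex that carries the initiator tRNA, the peak chr3L:12526910-12527219 was the weakest of the 7 genes. Its signals were 57.0 pooled, 40.7 in replicate 1 and 24.3 in replicate 2, with rank 2019 of 2198 and a −log10 IDR of 2.17. The summit was 334 bp upstream of the TSS, and none of the other lists held it. eIF3f1, which was not a pooled peak, had a slightly higher signal of 57.4, so the 2 genes lay on either side of the IDR threshold with nearly equal signal. eIF2D, a factor that can deliver tRNA outside the eIF2 pathway, had 43.3, and eIF2A, eIF2alpha and eIF2gamma had 32.1 to 36.7.

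No peak was assigned to the eIF2B, scanning, cap-binding, helicase or eIF4G genes, which together are 20 of the 52. The share over all protein-coding genes nearest to a candidate was 12.9%, and the absence in these small groups was not tested. The highest values there were 53.7 at eIF2Bdelta and 39.4 at eIF2Bgamma (both subunits of the exchange factor of eIF2), 42.4 at eIF4H1 and 40.3 at eIF4A (a helicase cofactor and the helicase that unwinds the leader), and 40.7 at eIF4EHP, a cap-binding repressor. Their −log10 IDR values ran from 0.224 at eIF2Bgamma to 1.47 at eIF2Bdelta. The candidate of eIF2Bdelta was 498 bp downstream of the TSS, at the edge of the promoter window. The 2 scanning factor genes, eIF1 and eIF1A, reached 23.2 and 12.4.

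Peaks next to some of these genes were nearer to another gene's TSS. A summit of signal 91.9 was 393 bp from the eIF1 TSS but 10 bp from that of RpL28, a ribosomal protein gene. Beyond the promoter window, the peak with the second highest signal of all (887) was 690 bp from the TSS of eIF2Bbeta and 29 bp from that of Ugalt. A peak of 57.1 was 579 bp from eEFSec and 174 bp from Acox57D-p, and one of 83.4 lay inside eIF4EHP but 9751 bp from its TSS, with Syx1A nearest. Counting any gene with a TSS within 500 bp of a summit adds eIF1 to the 7 genes and gives 8 of 52 (15.4%, interval 8.01 to 27.5%), against 9.23% of all genes. Counting summits in the gene body or 1 kb upstream gives 11 of 52 (21.2%, interval 12.2 to 34.0%), against 13.8% of all genes. With peaks at or above the list's median signal alone, eEF1gamma, eIF5B and eIF6 remain, 3 of 51 (5.88%, interval 2.02 to 15.9%), against 7.38% of all genes, so the factor share was below the background in value by that count.

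Fewer factor genes had a peak in either replicate's own list than in the pooled list. At factor genes 6 of 51 had a peak in replicate 1's own list (11.8%, interval 5.51 to 23.4%), against 10.5% of all genes. In replicate 2's own list it was 3 of 50 (6%, interval 2.06 to 16.2%), against 5.33% of all genes. eEF1gamma, eIF3h and eIF6 were in both, and replicate 1's list also held eEF1alpha1, eEF2 and eIF5B. The conservative list held 6 of 50 factor genes (12%, interval 5.62 to 23.8%), against 9.9% of all genes.

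Of the 9 pooled peaks, 7 overlapped replicate 1's list (77.8%, against 65.2% of all pooled peaks) and 5 overlapped replicate 2's list (55.6%, against 34.6%). All 5 were among the 7, and 2 peaks, at eEF5 and eIF2beta, were in neither list (22.2%, against 29.3%). The weaker eIF3h peak counted as shared only through its overlap with the region of the stronger one. In 8 of the 9 peaks both replicates had a candidate at the summit. Replicate 1 had the higher signal in 6 of the 8 and replicate 2 in the 2 others, the eEF1gamma promoter and the stronger eIF3h peak. The sum of both was 0.990 to 1.14 times the pooled signal. Signals of separate lists share no stated scale. Over all genes, the median of the strongest promoter candidate was also higher in replicate 1 (19.4, against 15.0). By rank among its own candidates, replicate 2 placed eIF6 (30, against 32) and the eEF1gamma promoter (163, against 426) higher. The same held for eIF5B (826, against 907) and the stronger eIF3h peak (663, against 1995). Replicate 1 ranked the others higher.

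**Figure D3:**
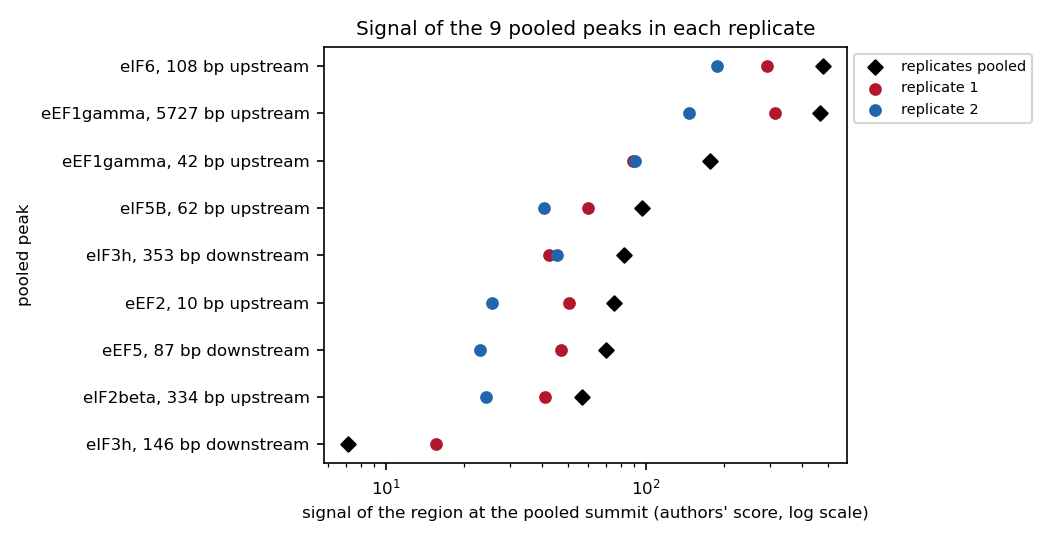
Signal at the 9 pooled peaks of factor genes on a log scale, for both replicates pooled (black diamonds), replicate 1 (red) and replicate 2 (blue), with each peak's distance from the TSS in its label. The weaker eIF3h peak, in the bottom row, has no replicate 2 candidate. Replicate 1 lies to the right of replicate 2 in 6 of the other 8 rows, but signals of separate lists share no stated scale.

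Nearly all factor peaks were at promoters. Of the 9 summits, 8 lay within 500 bp of a TSS (88.9%, interval 56.5 to 98.0%), against 49.0% of all pooled peaks, and the exception was the intergenic peak 5727 bp from eEF1gamma. Ribosomal protein genes had a like share, 43 of 47 (91.5%). Of the 8 promoter summits 5 were upstream of the TSS (62.5%, against 70.8% of all promoter peaks), with a median position of −26 bp, against −89 bp. The median signal of the factor peaks was 82.4, against 82.6 over all peaks, and 4 of the 9 were at or above the list's median. Their signals ran from 7.15 to 481, with the eIF6 and distal eEF1gamma peaks at ranks 29 and 31 of 2198.

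Of 6 sequence words searched around the summits, the DRE word and TATAAA were the most frequent at factor peaks, at 4 of 9 each. The DRE word ATCGATA, bound by the promoter factor DREF, was within 100 bp of 4 of the 9 factor summits on either strand (44.4%, interval 18.9 to 73.3%). It was at 4.55% of all pooled summits, of which 49.0% were at promoters, and at 4.68% of the 18584 promoter candidates that were not peaks. The 4 were at eIF6, 100 bp from the summit and 8 bp from the TSS, eEF1gamma, 4 bp from the promoter summit, eIF5B, 46 bp, and eEF2, 12 bp. The eEF1gamma and eIF6 copies are the palindrome TATCGATA read on both strands, and the eIF5B copy lies in an exon and is outside the sequence shown.

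The DRE word was also frequent at factor genes with no peak. Per gene, 22 of 52 factor genes had ATCGATA within 100 bp of an annotated start (42.3%, interval 29.9 to 55.8%), against 37.5% of ribosomal protein genes and 16.8% of all genes. It was at 4 of the 7 factor genes with a promoter peak (57.1%, interval 25.0 to 84.2%) and at 18 of the 45 without one (40%, interval 27.0 to 54.5%), and these intervals overlap. Over all genes the share was 16.8% with a promoter peak and 16.8% without that condition. A match is a string of letters, and whether DREF was bound there was not measured.

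TATAAA was at 4 of 9 factor summits (44.4%, interval 18.9 to 73.3%), against 30.9% of all pooled summits and 16.2% of the promoter candidates that were not peaks. These copies were upstream of the TSS by 133 bp at eIF6, 74 bp at eEF2 and 5641 bp at the distal eEF1gamma peak. At eEF5 the copy was 79 bp downstream. Per gene, TATAAA was within 100 bp of an annotated start at 34.6% of factor genes and 34.6% of all genes. Whether any of them serves as a TATA box was not tested. The other words were at 1 factor summit or none. ACAGTGG, a word picked from an earlier ranking of these data and found at 10.6% of all pooled summits, was at 0 of 9 factor summits (interval up to 29.9%) and at 3.07% of the promoter candidates that were not peaks. CAGTAGC, the odd-skipped core, was at 1 of 9, the eIF2beta peak, 58 bp from the summit, against 2.50% of all pooled summits. GTCACAC, the core of the motif bound by M1BP, was at 1 of 9, the eIF5B peak, against 3.14%, and GAGAGAG, the GAGA factor word, was at 0 of 9, against 6.60%. With 9 summits, 1 more or 1 fewer match moves a share by 11.1 percentage points.

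**Figure D4:**
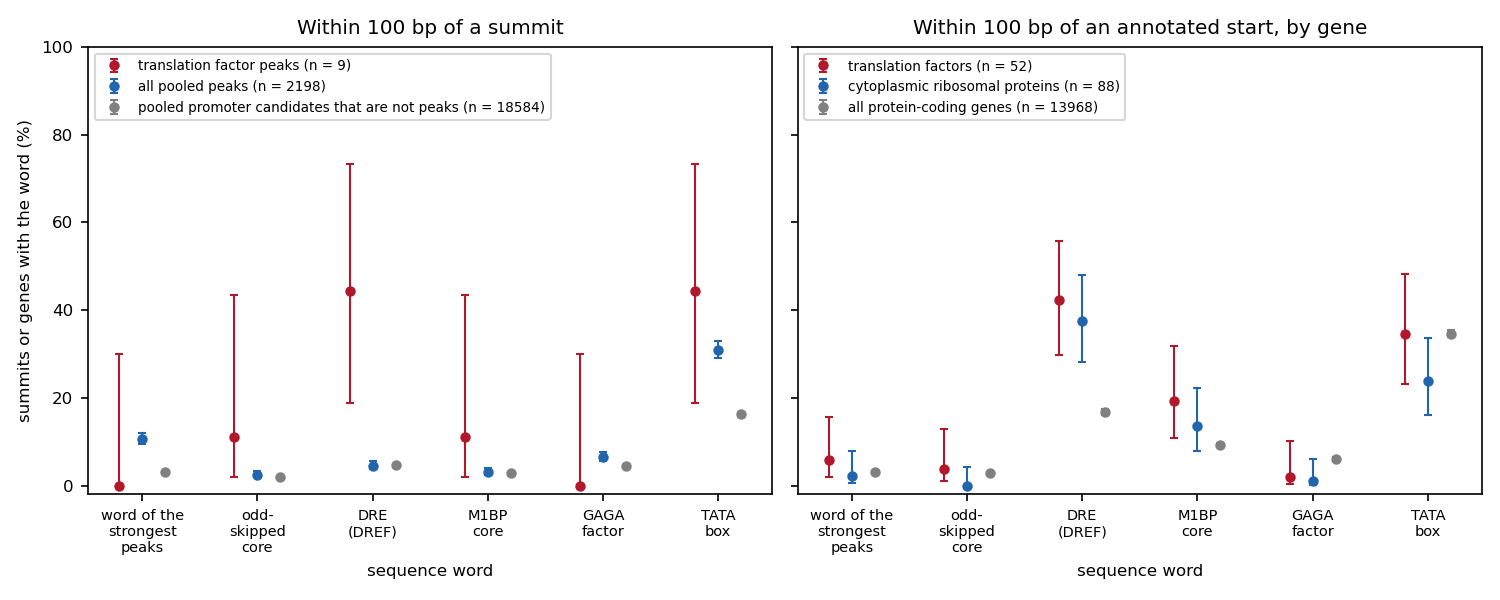
Percentage of summits (left) and of genes by annotated start (right) with each of 6 words within 100 bp on either strand, with 95% Wilson intervals. On the left, translation factor peaks (red, n = 9) reach 44.4% for the DRE word, against 4.55% of all pooled peaks (blue), of which 49.0% were at promoters. The share was 4.68% of promoter candidates that were not peaks (grey). On the right, factor genes (red, 42.3%) and cytoplasmic ribosomal protein genes (blue, 37.5%) lie above all protein-coding genes (grey, 16.8%) for that word.

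The core letters of the pyrimidine-rich initiator of ribosomal protein genes were rarer at factor genes. The letters CTTT, its core, beginning within 5 bp of an annotated TSS on the transcribed strand, were at 7 of 52 factor genes (13.5%, interval 6.68 to 25.3%), against 57 of 88 ribosomal protein genes (64.8%, interval 54.4 to 73.9%) and 8.06% of all genes. They were eEF1alpha1, eEF2, eEF5, eIF3f1, eIF3i, eIF3m and eIF4A. Their matches began 4 or 5 bp from the annotated TSS, except at eIF3m (1 bp). Each match is a string of letters, and whether it serves as a TCT initiator was not tested. Of the 7 factor genes with a promoter peak, 2 had the core (eEF2 and eEF5; 28.6%, interval 8.22 to 64.1%), and of the 45 without, 5 had it (11.1%, interval 4.84 to 23.5%), and these intervals overlap. Over all protein-coding genes the shares were 14.0% with a promoter peak and 7.60% without. Ribosomal protein genes had it at 28 of 41 with a promoter peak (68.3%) and at 29 of 47 without (61.7%). The starts of 4 of these factor genes are shown, with 12 bases on either side of the TSS and the CTTT core in capitals, on the strand of the gene (RefSeq Release 6).
eIF3i start, chr2L:4967763-4967787, minus strand: gccacggtcacactgctCTTTtggc
eIF4A first start, chr2L:5981752-5981776, plus strand: ttgcaagatggagcctCTTTtgctt
eIF4A second start, chr2L:5982582-5982606, plus strand: agctatcgCTTTcggtctcatacgt
eEF2 start, chr2L:21682104-21682128, minus strand: gctgcagcgcctcgctCTTTcctgt
eIF3f1 start, chr3R:4714170-4714194, minus strand: gcactatcgataggccCTTTtcttg
The eEF2 start shown is 1 of 2 annotated starts, downstream of the one nearest to the summit. The eIF3f1 start also holds ATCGATA, and this gene's peaks were in the conservative list only.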

How the data were processed

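ChIP-seq of Bowl-eGFP was deposited as peak lists on dm6, per the labels. The authors deposited ranked candidates and thresholded peaks per replicate and pooled, plus a conservative pooled list. Peak signal is the authors' deposited score, with no stated scale, and ranks regions within a list. The second deposited value is the −log10 of the global IDR. Neither the aligner nor the peak caller is named in the labels or notes, and the control reads were not analysed here. Depth is unknown, because no read counts are listed.

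Each summit went to the protein-coding gene with the closest TSS (Ensembl release 115, BDGP6.54), with genes that share the TSS each credited (46 pooled peaks). The assignment was tested on simulated positions. Promoters were summits within 500 bp of a TSS. Sequence came from RefSeq Release 6, whose chromosome lengths fit the files. The peaks of replicate lists were matched by overlaps of at least 1 bp. Shares carry 95% Wilson intervals for counting error. Python 3.11.15 with numpy 2.4.6, pandas 2.3.3 and scipy 1.17.1 was used. No test was run between groups, since there was 1 group.

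The genes and lists were chosen with earlier results of these data known. The genes named are every factor gene with a peak in any list, the 10 without a pooled peak with the strongest promoter candidates, and those with a TSS within 500 bp of another gene's summit; others in their role group, and those from the alternative assignments, were added after their values were seen. The listed names mEFG2 and Tor were not matched. The alternatives were the other peak lists, a signal minimum, the IDR threshold on all candidates, other assignment rules and other promoter, overlap and word windows.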

Additional observations from a re-analysis of the deposited data

How the results depend on the processing

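Of 33 alternative values, 27 stayed within 1.5 times the reported count or median or inside the reported share's 95% interval, which is wide at 9 peaks, and 6 did not. The number of factor genes with a peak was 7 in the pooled list and 6 in the conservative list, and leaving out 1 replicate gave 3 to 6, with 3 in replicate 2's own list (without replicate 1). It was 3 of 51 (5.88%, against 7.38% of all genes) with the pooled peaks at or above the median signal (eEF1gamma, eIF5B and eIF6). With summits in the gene body or 1 kb upstream it was 11 of 52 (21.2%, against 13.8% of all genes), which adds eEFSec, eIF1, eIF2Bbeta and eIF4EHP. The share of candidates at factor genes that were peaks was 2.33%, and 11.3% within 500 bp of the TSS; leaving out 1 replicate gave 1.29% (without replicate 1) to 2.33%. Leaving out 1 replicate gave promoter shares of 75.0 to 85.7%. Both CAGTAGC and GTCACAC were at 0 of 9 factor summits within 50 bp, against 1 of 9 within 100 bp. TATAAA was at 22.2% of factor summits within 50 bp, 44.4% within 100 bp and 55.6% within 200 bp, against 18.2%, 30.9% and 45.5% of all pooled summits. The cause was not tested. No paired analysis was possible because there was 1 group. With 9 peaks, 1 peak moves a share of peaks by 11.1 percentage points. The signal has no stated scale, reads and the control were not analysed here, and depth is unknown.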
